A study of Mus musculus with 8 samples.

Results

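Ms4a15, Crybg1, Pdcd1 and Scgn were 4 genes with no signal above background in naive mice and a signal on every array from mice with experimental autoimmune encephalomyelitis (EAE), the chronic phase included. They were chosen by name as genes raised in EAE and not clearly lost in chronic disease, so their EAE and chronic values are given as a description and are not tested. The choice set no numeric threshold. The genes were read by 5 probes among 56605 on the array, 2 of them for Ms4a15, and they were 4 of the 25883 genes that entered the fits. Crybg1 is written under its older name, Aim1, in the deposited files.

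The samples were astrocytes by their source label and spinal cord by their tissue label, all from C57Bl/6J mice. There were 8 Agilent arrays with 1 dye, 1 array per group: wild-type (WT) and Cx47-deficient mice, each naive, with EAE, with EAE and iguratimod, or with EAE in the chronic phase. In the sample titles icKO stands for the Cx47-deficient mice, and FL or F/F for the WT mice; the series title describes a conditional knockout in oligodendroglia; for the naive arrays the genotype came from the titles. The titles of both chronic arrays, and no others, also carry p50, which was not interpreted here as an age or as a day of disease. The Cre driver, the alleles that the WT mice carry, the age of the mice, the immunisation, the dose of iguratimod, the way the cells were isolated and whether animals were pooled are not given in the sources used here. With 1 array per group, p-values measure only the variation of the genotype difference across conditions, which may be technical.

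EAE is a model of multiple sclerosis in which T cells primed against myelin enter the central nervous system and recruit other leukocytes, while resident astrocytes and microglia respond. Iguratimod is a small-molecule drug used against rheumatoid arthritis. Pdcd1 encodes PD-1, an inhibitory receptor that T cells put on their surface after activation and that binds the ligands PD-L1 and PD-L2. Scgn encodes secretagogin, a calcium-binding protein with EF-hands that is found in neuroendocrine cells and in some interneurons, among them those of the olfactory bulb. Ms4a15 belongs to a family of membrane proteins that cross the membrane repeatedly, whose best-known member is the B cell antigen CD20. Crybg1 (Aim1, absent in melanoma) encodes a protein with beta gamma crystallin domains, the fold of the lens crystallins.

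The probes are shown because every value below rests on them. The first 30 bases of each 60-base probe follow, in lower case, with the mm9 position of the whole probe as the files give it, all on the minus strand.
Ms4a15, first probe: cctgacatatggcttgtatcatctatactt
Ms4a15, second probe: ttcctagttcctccaatactgtctttccaa
Crybg1: taactgtagtccttttgtgtatgtcgctag
Pdcd1: aaggaaagggggatataaccttgacgcaaa
Scgn: ttaaaatggatgcttcttctactgaagaaa
The Ms4a15 probes lie at chr19:11052797-11052856 and chr19:11053493-11053552. The Crybg1 probe lies at chr10:43670487-43670546 and the Pdcd1 probe at chr1:95935064-95935123. The Scgn probe is placed at chr13:24054004-24054661, a span of 658 bases for 60 probe bases, so its bases are split across the genome. Per RefSeq on GRCm38.p6, the gene IDs are 545279 for Ms4a15, 11630 for Crybg1, 18566 for Pdcd1 and 214189 for Scgn. Whether a probe lies in a coding exon or a UTR was not looked up here, as no annotation of the mm9 build was used.

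Levels are log2 of the processed signal minus the 75th percentile of the array. All 10 astrocyte markers (Gfap, Aqp4 and others) were above background on every array, and so were markers of neurons and oligodendrocytes: the median level of 7 neuron markers was 4.80 to 5.26. Both chronic arrays were on a slide of their own, with a median local background of 57 and 58 against 73 to 82 on the slide of the other 6, and 72.0% and 71.3% of probes well above background against 59.7% to 65.8%. Chronic disease and slide cannot be told apart.

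Ms4a15 was high on all 6 disease arrays by both of its probes. Its first probe read -5.97 in WT and -5.61 in Cx47-deficient naive mice, 0.86 and 0.87 in EAE, 0.61 and 1.77 with iguratimod, and -0.05 and 1.05 in chronic EAE. Its second probe read -7.30 and -7.70 in naive mice, -1.91 and -1.89 in EAE, -2.35 and -0.83 with iguratimod, and -3.23 and -2.38 in chronic EAE. Both probes were well above background on all 6 disease arrays and on neither naive array, and their naive and disease values did not overlap. The gene was chosen as raised in EAE, so nothing is read from that separation. Because the naive values are bounds only, folds are given as "at least", with the naive side raised to the lowest signal that counted as well above background on its array. On that scale EAE was at least 70.3-fold above naive by the first probe and at least 10.3-fold by the second. Chronic EAE was at least 54.6-fold and at least 5.51-fold above naive. Chronic minus EAE was a fitted -0.36 by the first probe and -0.91 by the second. By the first probe chronic EAE was lower than EAE in WT and not in Cx47-deficient mice (-0.91 and 0.18), and without the WT EAE array the fitted value became 0.067 (-0.79 without the Cx47-deficient EAE array).

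Crybg1 was lower on both chronic arrays than on any EAE or iguratimod array. It read -6.63 in WT and -7.42 in Cx47-deficient naive mice, both below background, then -2.35 and -1.88 in EAE, -2.81 and -1.93 with iguratimod, and -3.42 and -3.47 in chronic EAE. The processed signal was 121 and 201 in EAE and 68.2 and 63.4 in chronic EAE. EAE was at least 8.91-fold and chronic EAE at least 3.54-fold above naive, and chronic minus EAE was -1.33. Its chronic level was thus above naive and 2.52-fold below EAE.

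Pdcd1 gave a low signal, close to the limit of detection. It read -7.12 in WT and -7.49 in Cx47-deficient naive mice, -4.00 and -2.95 in EAE, -3.99 and -3.22 with iguratimod, and -4.36 and -4.06 in chronic EAE. Its processed signal on the 6 disease arrays ran from 35.6 to 95.5, where the lowest signal counted as well above background was 12.6 to 16.4. On the scaled level the Cx47-deficient EAE array was the highest, and the chronic arrays were the lowest (-4.06 in Cx47-deficient mice against -4.00 in WT EAE); on the processed signal the Cx47-deficient chronic array (42.1) was above the WT EAE array (38.4). EAE was at least 3.46-fold and chronic EAE at least 2.08-fold above naive, and chronic minus EAE was -0.73. That value was -0.32 without the Cx47-deficient EAE array, -1.14 without the WT EAE array and -1.25 with quantile normalization.

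Among the disease arrays Scgn was lowest in the chronic phase and highest with iguratimod. It read -7.31 in WT and -7.71 in Cx47-deficient naive mice, -3.28 and -3.66 in EAE, -2.17 and -2.39 with iguratimod, and -5.13 and -4.43 in chronic EAE. The 4 conditions did not overlap, with 1 array per genotype in each. How many other genes share this was not counted, and the gene was chosen as raised in EAE, so nothing is read from it. The chronic WT array had a processed signal of 20.8, above its own array's background but, on the scaled log2 level, below the floor of the WT naive array (-5.07), so no fold against naive is given for WT. In Cx47-deficient mice chronic EAE was at least 2.05-fold above naive. Over both genotypes EAE was at least 3.48-fold and chronic EAE at least 1.40-fold above naive, and chronic minus EAE was -1.31 (-0.80 without the WT chronic array).

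**Figure D1:**
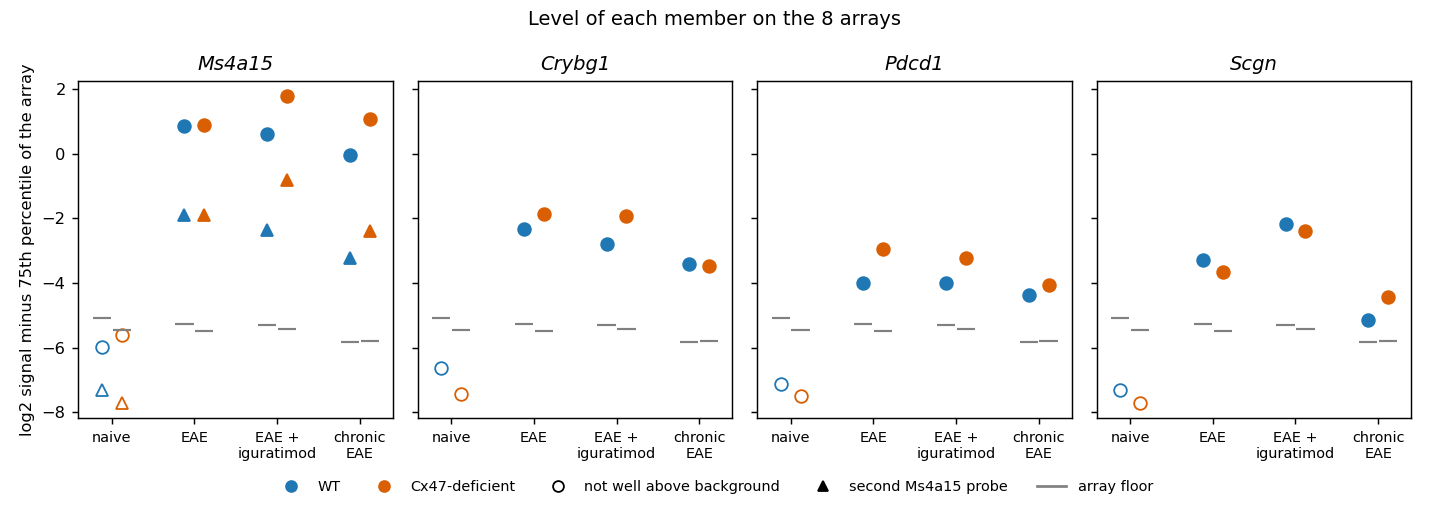
Level of each of the 5 probes (log2 processed signal minus the 75th percentile of the array, vertical axis) on the 8 arrays, by condition (horizontal axis) and genotype, with values not well above background drawn as open symbols; each point is 1 array and grey bars mark the floor of each array. All naive points are open and lie between -7.71 and -5.61, and every disease point is filled.

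These fits called 64 genes higher in EAE than naive at an adjusted p under 0.05 (limma, Benjamini-Hochberg), 0.247% of the genes tested, and all 4 genes were among them. Chronic EAE against naive called 183 genes higher, 0.707%, again with all 4. Nothing is read from these counts, since the choice of the genes used the same values. Leaving out 1 array lowered the 65 calls in EAE to 11 without the WT naive array, to 1 without either iguratimod array, and to 0 without any of the other 5 arrays. It lowered the 245 calls in chronic against naive to between 1 and 3, whichever array was left out. Chronic against EAE called 2348 genes higher (9.07%) and 1407 lower (5.44%), and none of the 4; the 3755 calls became 1 without the WT EAE, the Cx47-deficient EAE or the WT chronic array, 625 without either iguratimod array, 1148 without the Cx47-deficient chronic array and 2446 without either naive array.

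How much of the EAE rise was left in chronic disease differed among the 4. For each of the 452 genes at least 4-fold higher in EAE in the fit, the chronic minus naive difference was divided by the EAE minus naive difference on the log2 scale. The median gene kept 33.2% (quartiles 14.4% and 48.2%), while Ms4a15 kept 94.5% by its first probe and 83.8% by its second, Pdcd1 80.9%, Crybg1 72.9% and Scgn 67.5%. The denominators use naive values below background. With those raised to the floor of their array, the share was 94.1% for the first Ms4a15 probe and 73.0% for the second, 59.1% for Pdcd1, 57.8% for Crybg1 and 27.0% for Scgn. Among the 180 genes whose naive probes were dim, the median on that scale was 0.505%, and Ms4a15 by its first probe stood at percentile 96.7 while Scgn stood at 70.6. Being dim in naive mice and above background on all 6 disease arrays was shared by 79 of those genes. The median of the 180 thus also covers genes unlike the 4 in this respect. Nothing is read from the shares or ranks of the 4, since they were chosen as raised in EAE and not clearly lost in chronic disease.

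**Figure D2:**
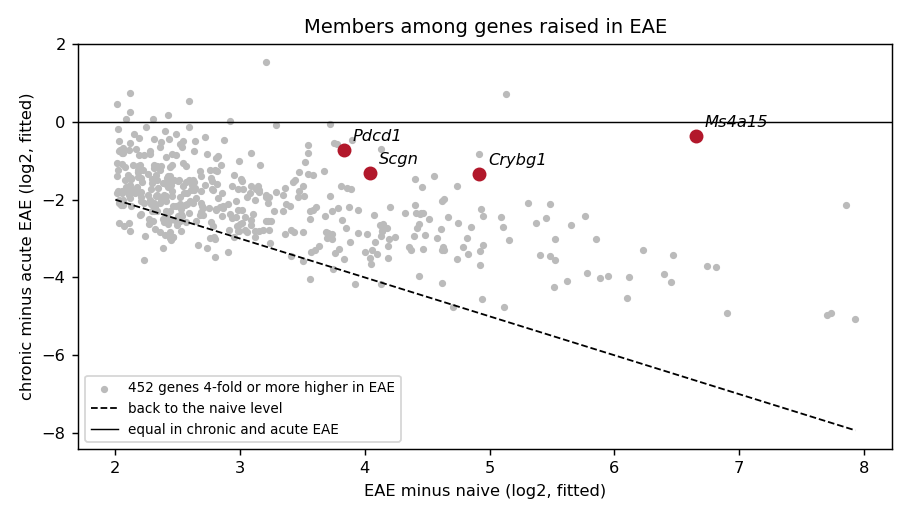
Fitted EAE minus naive difference (horizontal axis, log2) against chronic minus EAE difference (vertical axis, log2) for the 452 genes at least 4-fold higher in EAE, 1 point per gene, with the 4 genes labelled; the dashed line marks a return to the naive level. The median gene lies at -2.10 on the vertical axis and the 4 genes lie between -1.33 and -0.36.

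Background correction mattered most for the dim genes. With normexp correction of the mean signals, which adds an offset of 50, chronic minus naive was 3.52 for Ms4a15, 0.55 for Crybg1, 0.19 for Pdcd1 and 0.17 for Scgn, against 6.29, 3.58, 3.10 and 2.73 on the processed signal. The sign was the same for each gene on both scales. With normexp the values of Pdcd1 and Scgn were about as large as their SEs (0.19 and 0.17). On that scale the chronic rise of these genes cannot be told from no change.

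Cx47 deficiency gave no call for any of the 4 genes, nor for any gene: limma called 0 of 25883 genes (0.0%), with 1144 at an unadjusted p under 0.05, and each alternative processing also called 0. Ms4a15 had the largest difference of the 4, 0.66 ± 0.24 (SE of the limma fit over 4 pairs; 95% interval 0.04 to 1.27, not adjusted; unadjusted p = 0.0405, adjusted p = 0.830). Its pairs did not move alike: Cx47-deficient minus WT was 0.01 in EAE, 1.16 with iguratimod and 1.10 in the chronic phase. The second probe gave 0.01, 1.53 and 0.85 for the same pairs. Differences of 2-fold or more upward in such single pairs were found in 2.6% of genes with iguratimod and 1.63% in the chronic phase. The naive pair was below background on both sides and enters the fit without a usable level.

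Pdcd1 was 0.44 ± 0.26 higher in the Cx47-deficient samples (limma adjusted p = 0.830, interval -0.23 to 1.10). The difference was 1.05 in EAE, 0.77 with iguratimod and 0.30 in the chronic phase, higher in 3 of 3 disease pairs. The fitted value was 0.12 with normexp, 0.23 without either EAE array and 0.71 without either naive array. In the EAE pair 6.71% of all genes were 2-fold or more higher. Crybg1 differed by 0.13 ± 0.29 (limma adjusted p = 0.915, interval -0.62 to 0.88) and Scgn by -0.08 ± 0.23 (limma adjusted p = 0.934, interval -0.66 to 0.50). Neither had 1 sign across its disease pairs. The intervals of these 3 genes include 0 and reach 0.50 or more upward, so they leave room for differences of that size.

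For iguratimod against untreated EAE, limma called 0 of 25883 genes (0.0%), with 546 at an unadjusted p under 0.05, and each alternative processing called 0. The EAE arrays are those on which the 4 genes were picked as high, which favours a lower value with iguratimod. Scgn was higher instead, by 1.19 ± 0.32 (SE; 2.28-fold, interval 0.37 to 2.01, limma unadjusted p = 0.0133, adjusted p = 0.9999). The difference was 1.11 in WT, where 3.08% of genes were 2-fold or more higher, and 1.26 in Cx47-deficient mice, where 0.268% were. Of 22468 genes that could be compared in both genotypes, Scgn was the 1 gene (0.00445%) at least 2-fold higher with iguratimod in both, a fact seen after its values and not tested. With quantile normalization or the authors' deposited values 4 genes passed that limit, Scgn among them, and with normexp correction none did (0.68 and 0.80 for Scgn).

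For the other genes the interval of iguratimod minus EAE included 0. Ms4a15 differed by -0.26 in WT and 0.89 in Cx47-deficient mice (fitted 0.32 ± 0.34, interval -0.55 to 1.19). Crybg1 differed by -0.46 and -0.05 (fitted -0.26 ± 0.42, interval -1.32 to 0.80) and Pdcd1 by 0.014 and -0.27 (fitted -0.13 ± 0.37, interval -1.07 to 0.81), each with a limma adjusted p of 0.9999. All 4 genes remained above naive with iguratimod, by at least 87.7-fold for Ms4a15, 7.46-fold for Crybg1, 3.17-fold for Pdcd1 and 7.93-fold for Scgn.

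**Figure D3:**
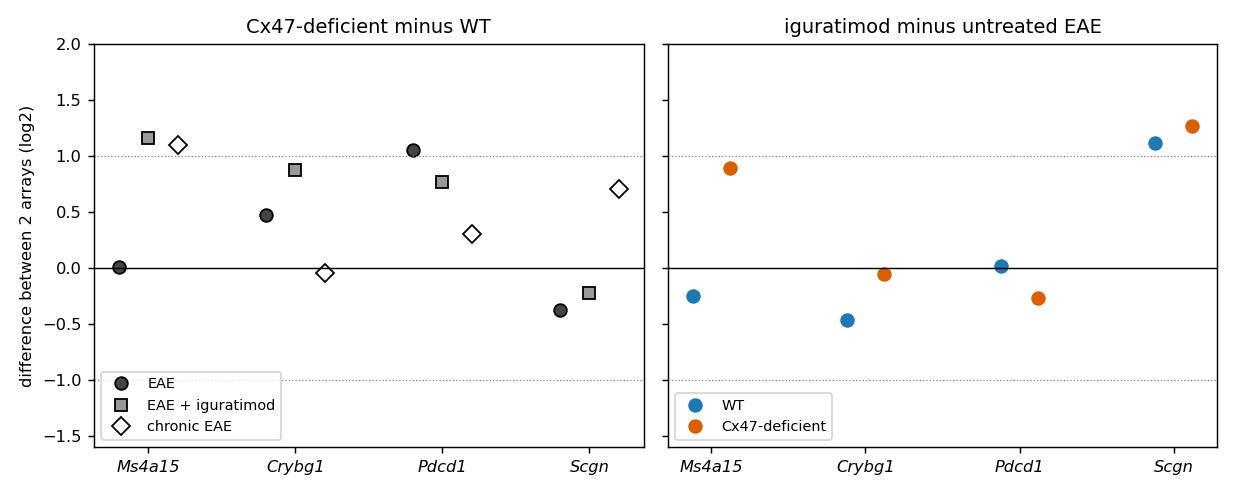
Difference between 2 arrays (vertical axis, log2) for each gene (horizontal axis): Cx47-deficient minus WT in EAE, with iguratimod and in the chronic phase on the left, iguratimod minus untreated EAE in each genotype on the right, 1 point per pair of arrays. Dotted lines mark 2-fold; Scgn lies above the upper one in both genotypes on the right (1.11 and 1.26).

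Genes that work with PD-1 were read as lists. Cd274, which encodes PD-L1, was 2.84 ± 0.31 higher in EAE (7.16-fold, limma adjusted p = 0.054) and fell by 2.18 ± 0.31 from EAE to chronic disease (limma adjusted p = 0.037). Pdcd1lg2, the gene of PD-L2, did not pass the filter on dim probes. None of the 6 other inhibitory receptors that passed it was called by limma in EAE against naive (median 1.25, 4 with an unadjusted p under 0.05): Btla was at 2.19, Klrg1 at 2.06 and Lag3, a receptor for MHC class II, at 1.47. None of the 9 costimulatory genes was called (median 0.68, 3 with an unadjusted p under 0.05), with Icos, a receptor of activated T cells, at least 5.84-fold above naive. None of the 12 genes of PD-1 signalling and its regulators was called (median 1.02, 5 with an unadjusted p under 0.05); Tbx21, the Th1 transcription factor T-bet, which mitral and tufted cells of the olfactory bulb also express, was at least 15.4-fold and Batf at least 5.43-fold above naive. Over all genes the median EAE minus naive difference was -0.06. In chronic against EAE, Lag3, Cd86, Ptpn6 and Nfatc1 were called lower and Cd244a higher, beside 5.44% of all genes called lower and 9.07% higher.

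In the Ms4a family 11 of 19 genes passed the filter, and 1 was called higher in EAE: Ms4a6c, at 2.99 ± 0.28 (7.93-fold, limma adjusted p = 0.047). Ms4a4b, expressed by T cells, was at least 15.1-fold above naive and Ms4a7, expressed by macrophages, was 7.99-fold above it, both short of the threshold. In chronic against EAE, 6 were called lower (Ms4a6b, Ms4a6c, Ms4a6d, Ms4a7, Tmem176a and Tmem176b) and 2 higher (Ms4a1 and Ms4a5), where 5.44% of all genes were called lower and 9.07% higher, with a family median of -1.64 against 0.02 over all genes. Ms4a15 was at -0.36 by its first probe and -0.91 by its second in the same contrast. It was chosen as not clearly lost in chronic disease, so nothing is read from its place beside the family.

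The families of Crybg1 and Scgn had EAE medians near that of all genes. Of 11 beta gamma crystallin genes none was called by limma in EAE against naive (1 with an unadjusted p under 0.05), with a median of 0.01 and a range of -0.94 to 0.98. Of 20 genes of EF-hand calcium sensors and buffers none was called (2 unadjusted), with a median of 0.00 and a range of -2.13 to 0.72. Of 13 genes of secretory vesicles and SNARE complexes none was called (1 unadjusted), with a median of -0.06. In chronic against EAE these lists gave 1 call higher each (Cryba1, Rcvrn and Snap23), and Crybg3, Crybb1, S100a1, S100a6 and Dpp4 were called lower, beside 9.07% of all genes called higher and 5.44% lower.

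Markers of T cells, the cells best known for PD-1, were read on the same arrays. Of 12 T and NK cell markers 10 passed the filter, and their EAE minus naive differences had a median of 4.11, with none called by limma and 8 at an unadjusted p under 0.05. Their median level was -6.65 in WT and -6.39 in Cx47-deficient naive mice, -2.27 and -1.01 in EAE, -3.33 and -1.24 with iguratimod, and -4.13 and -3.98 in chronic EAE. From EAE to chronic disease the list median was -2.01 (range -3.37 to 1.72), with Nkg7 and Gzmb, genes of cytotoxic cells, called lower and Tcra called higher. Over all genes 5.44% were called lower and 9.07% higher. Tcra was above background on the chronic arrays only, at -4.88 in WT and -5.61 in Cx47-deficient mice. The summed linear level of the list was 2.14 in WT and 1.23 in Cx47-deficient naive mice. It was 2.19 to 4.95 in EAE with or without iguratimod, and 1.55 and 1.42 in chronic EAE. Cd3g, Cd3d, Cd2, Il2rb, Nkg7, Gzmb and Tcra were below background on both naive arrays. In RNA from many cells, more cells of a type and more RNA per cell cannot be told apart. Other leukocyte and vessel markers were also above naive in EAE, with list medians of 3.09 for monocytes and macrophages, 3.20 for neutrophils and 2.41 for endothelial cells. The part of infiltrating T cells in the values of Pdcd1 was not tested.

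A second list held 21 genes known from the olfactory bulb and its inputs. It was put together after such genes were seen among those most like the 4, so it has no test. The list had a median EAE minus naive difference of 2.15, with 16 of 21 above 0, and a median chronic minus EAE difference of -0.47. Its median level was -1.81 in WT and -0.85 in Cx47-deficient naive mice, 1.25 and 0.93 in EAE, 1.24 and 1.22 with iguratimod, and -0.12 and 0.78 in chronic EAE. Its summed linear level did not separate the groups: it reached 99.2 in naive mice, ran from 87.3 to 143 in EAE with or without iguratimod, and was as low as 68.5 in chronic EAE.

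Members of that list did not behave alike: Reln, Etv1, Calb2, Pax6 and Gng13 lay between -0.57 and -0.22 in EAE minus naive. The genes described next were picked after their values were seen, as examples of those that were higher. Cdhr1, a cadherin of mitral and tufted cells, read -2.17 and -2.77 in naive mice, 1.25 and 1.37 in EAE, 0.87 and 2.16 with iguratimod, and 0.37 and 1.09 in chronic EAE. Omp, the marker of mature olfactory sensory neurons, read -3.38 and -3.89 in naive mice, 1.30 and -0.83 in EAE, 1.24 and -0.51 with iguratimod, and -2.79 and -1.12 in chronic EAE. Sp8, a transcription factor of olfactory bulb interneurons, read -2.62 and -3.62 in naive mice, 0.48 and 0.37 in EAE, 0.35 and 1.22 with iguratimod, and -0.78 and 0.02 in chronic EAE. All 3 were higher on every disease array than on either naive array. The 9 Hox genes of a trunk list, which mark the hindbrain and spinal cord, were above background on all 8 arrays, with a median EAE minus naive difference of -0.51 and a median chronic minus naive difference of -1.41. The part of the tissue sampled in the values of the 4 genes was not tested.

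**Figure D4:**
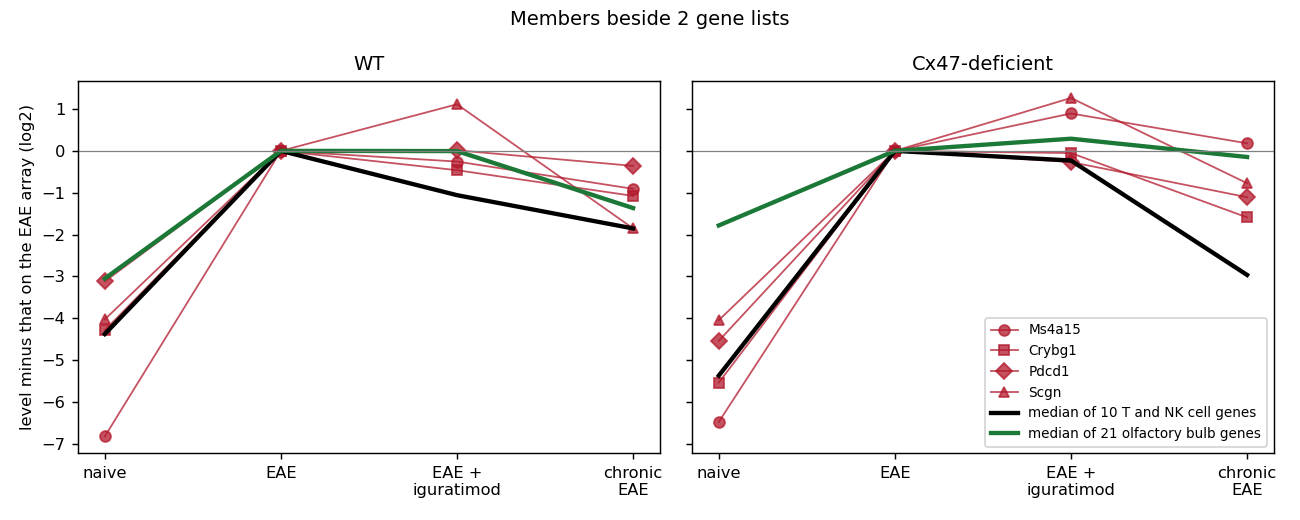
Level on each array minus that on the EAE array of the same genotype (vertical axis, log2) by condition (horizontal axis), for the 4 genes (symbols) and the medians of the T and NK cell list (black line) and the olfactory bulb list (green line), with WT on the left and Cx47-deficient mice on the right; naive values of the 4 genes are below background, and lines join the conditions for reading only. On the Cx47-deficient chronic array the T and NK cell median lies below all 4 genes, of which Crybg1 is the lowest (-1.59). On the WT chronic array that median lies level with Scgn (-1.85). The 4 genes were chosen as not clearly lost in chronic disease and the lists were not, so nothing is read from these positions.

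Over the 8 arrays the 4 genes followed each other, with Pearson r between 0.907 (Pdcd1 and Scgn) and 0.989 (Crybg1 and Pdcd1). These values are a description: all 4 were picked as low in naive and high in disease, and the arrays share condition, slide and scaling. Over the 6 disease arrays r was between 0.435 (Pdcd1 and Scgn) and 0.869 (Crybg1 and Pdcd1). The genes most like each member over the 8 arrays, by Pearson r on the log2 scale, were these. For Ms4a15 they were Gins2, Tafa3, Tfap2c, Kank3 and Frmd7 (r from 0.988 to 0.986). For Crybg1 they were Txk, a kinase of T cells, then Pdcd1, Hcar2, Dlx1 and Tbx21 (0.991 to 0.982). Txk was well above background on only 2 of the 8 arrays, so its r includes values below background. For Pdcd1 they were Crybg1, Frmd7, Tfap2c, a long non-coding RNA region of chromosome 1 and Cdhr1 (0.989 to 0.981). For Scgn they were Tnni3, S100a5, Ccl8, Sp8 and Gbp4 (0.977 to 0.957). Genes with r over 0.95 numbered 27 for Ms4a15, 48 for Crybg1, 36 for Pdcd1 and 8 for Scgn. Of the 18 distinct genes named, 5 were in the olfactory bulb list, Tbx21 among them, which is also in the list of PD-1 regulators. The olfactory bulb list was put together after these genes were seen, so nothing is read from that overlap.

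Upstream sequences are shown because the 4 genes were low and high on the same arrays, and they share little by the letters searched. The 250 bases before the start of Pdcd1, Scgn and Ms4a15 follow from RefSeq on GRCm38.p6, minus strand, with matches to the motifs in capitals. The motifs, searched on both strands, were GAS (TTCNNNGAA), the NFAT core (TTTCC), the ISRE core (TTTC, any 2 bases, TTTC), kappa B (GGGA, any base, TTTCC), AP-1 (TGANTCA) and the ETS core (AGGAAG).
Pdcd1, chr1:94052554-94052803: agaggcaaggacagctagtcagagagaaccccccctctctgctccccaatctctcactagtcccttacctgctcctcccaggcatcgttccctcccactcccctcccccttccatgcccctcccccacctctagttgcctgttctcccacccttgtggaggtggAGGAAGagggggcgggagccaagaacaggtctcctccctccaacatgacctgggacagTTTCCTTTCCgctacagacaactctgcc
Scgn, chr13:23991215-23991464: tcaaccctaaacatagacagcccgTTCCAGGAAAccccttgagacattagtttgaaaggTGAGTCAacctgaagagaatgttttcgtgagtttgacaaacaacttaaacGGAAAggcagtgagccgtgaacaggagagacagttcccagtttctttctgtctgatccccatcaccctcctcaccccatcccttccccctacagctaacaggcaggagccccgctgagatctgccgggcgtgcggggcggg
Ms4a15, chr19:10993251-10993500: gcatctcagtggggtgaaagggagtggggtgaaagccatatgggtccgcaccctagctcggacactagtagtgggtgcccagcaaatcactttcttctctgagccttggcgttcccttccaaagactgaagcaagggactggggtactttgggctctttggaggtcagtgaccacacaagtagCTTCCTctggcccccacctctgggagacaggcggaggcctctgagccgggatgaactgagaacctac
Pdcd1 held 2 NFAT cores and 1 ETS core. Scgn held 1 GAS that overlaps 1 of its 2 NFAT cores, and 1 AP-1 site. Ms4a15 held 1 ETS core alone. Crybg1 has 3 listed starts: 1 holds an ISRE core overlapping an NFAT core and an ETS core, and the other 2 hold none of the motifs. Among the 32851 promoter windows of the table, 55.6% held the NFAT core, 29.5% the ETS core, 7.0% GAS, 6.7% AP-1, 3.0% the ISRE core and 0.4% kappa B. A match is a stretch of letters and no measure of binding, and no motif was found upstream of all 4 genes.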

How the data were processed

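The authors deposited scanner files whose intensity values came from Agilent Feature Extraction, version 10.7.1.1 in the headers and 9.5.1.1 per the submitters' processing notes, with probe positions on mm9. They also deposited a value table whose columns share 1 median, 50.2, on a linear scale; its normalization is not given in the sources used here, and it served as an alternative, read as a signal. RNA was amplified with a low-input kit, per the labels' protocols. From the processed signal of 62976 spots per array, control spots and outlier flags were left out, spots of a probe were averaged, and log2 values minus each array's 75th percentile were fitted. limma 3.58.1 in R 4.3.3 fitted condition plus genotype over the 8 arrays (3 residual degrees of freedom), with Benjamini-Hochberg adjustment over 25883 genes. A gene was its brightest probe by mean among those well above background on at least 2 arrays. The number of arrays limits the precision.

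The members and lists were chosen with earlier results of these data known. Named genes were the 4 members, the 5 genes most like each member and up to 4 genes of each list with the largest EAE difference; olfactory bulb and regional genes, and the genes named as called in chronic against EAE, were added after values were seen. Some genes are not reported here. In simulated data of 25883 genes for EAE against naive, changes of log2 2 and log2 4 were each recovered at 100%, and 4.31% of the calls were false. Every simulated gene was given the same spread (SD 0.234) and independent noise. In the data the spread differs among genes, so these shares do not measure the power of the fits reported here. Alternatives were normexp, quantile and median scaling, the authors' values, other filters, the mean of probes, slide 1 alone, leaving out each array, and, added after seeing the data, dim values raised to the array floor.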

Additional observations from a re-analysis of the deposited data

Results flagged for a closer look

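Some differences had opposite signs in groups compared under the same contrast. With 1 array per group, none of these differences between groups was tested.

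Ms4a15 differed between the genotypes in chronic minus EAE, at -0.91 in WT and 0.18 in Cx47-deficient mice, and in iguratimod minus EAE, at -0.26 and 0.89. Its second probe had the same signs with iguratimod and was lower in chronic disease in both genotypes (-1.33 and -0.49).

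Pdcd1 with iguratimod changed by 0.014 in WT and -0.27 in Cx47-deficient mice. Cx47-deficient minus WT changed sign for Crybg1, at 0.47 in EAE, 0.88 with iguratimod and -0.046 in the chronic phase. It also changed sign for Scgn, at -0.38, -0.23 and 0.70 in the same order.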

How the results depend on the processing

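No paired analysis was possible because each group has 1 array and the labels carry no replicate numbers to pair samples; the fit itself compares the genotypes within each condition. No member passed the filter that asks for signal above background on all 8 arrays, so that setting gave them no value. The genotype contrast and iguratimod minus EAE called 0 genes under every setting run. The causes of the changes below were not tested.

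The 65 calls in EAE against naive became 220 with normexp, 340 with median centring, 38 with quantile normalization and with the authors' values, 15 without a filter, 201 with the filter on all 8 arrays, 186 with dim values at the floor and 0 on slide 1 alone, and 0 to 11 with 1 array left out. The 3755 calls in chronic against EAE became 7591 with normexp, 6446 with median centring, 847 without a filter, 6793 at the floor, and 1 to 2446 with 1 array left out. The 245 calls in chronic against naive became 4121 with normexp, 1029 with median centring, 19 with quantile normalization, 12 with the authors' values, 25 without a filter, 1811 with the filter on all 8 arrays, 3001 at the floor, and 1 to 3 with 1 array left out. The 1 call with iguratimod against naive became 68 with normexp, 210 with median centring, 0 on slide 1 alone, with the authors' values and with quantile normalization, 47 with the filter on all 8 arrays, 10 with the mean of probes, 23 at the floor, and 0 with 1 array left out.

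EAE minus naive was 3.97 for Ms4a15, 1.45 for Crybg1, 0.72 for Pdcd1 and 0.84 for Scgn with normexp, and 6.14, 3.16, 1.79 and 1.80 at the floor. Chronic minus naive was 3.52, 0.55, 0.19 and 0.17 with normexp, and at the floor 1.82 for Crybg1, 1.06 for Pdcd1 and 0.48 for Scgn. Iguratimod minus naive was 4.28, 1.33, 0.72 and 1.58 with normexp, and at the floor 2.90 for Crybg1, 1.67 for Pdcd1 and 2.99 for Scgn. With the mean of its probes Ms4a15 was 6.13 in EAE and 5.49 in chronic EAE against naive. For Scgn, EAE minus naive was 4.08 with median centring, 4.27 with quantile normalization and 4.31 with the authors' values, and iguratimod minus naive was 5.36, 5.50 and 5.52. For Crybg1, chronic minus EAE was -0.90 with normexp, -1.71 with the authors' values, and -1.73 with median centring and with quantile normalization; chronic minus naive was 3.02 with quantile normalization and 3.01 with the authors' values. Pdcd1 was 2.61 in chronic minus naive with quantile normalization. The genotype difference of Crybg1 turned to -0.045 with median centring, which itself moved the median of all genes.

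With 1 array left out, the genotype difference ran from -0.12 to 0.43 for Crybg1 from 0.23 to 0.71 for Pdcd1 and from -0.34 to 0.031 for Scgn. Iguratimod minus EAE ran from -0.11 to 0.75 for Ms4a15, -0.76 to 0.24 for Crybg1 and -0.54 to 0.28 for Pdcd1, and stayed above 0 for Scgn. Chronic minus EAE ran from -0.79 to 0.067 for Ms4a15, -1.14 to -0.32 for Pdcd1 and -1.83 to -0.80 for Scgn. EAE minus naive ran from 6.22 to 7.08 for Ms4a15 and 3.82 to 4.25 for Scgn, chronic minus naive from 2.97 to 4.19 for Crybg1 and 2.56 to 3.64 for Pdcd1, and iguratimod minus naive from 5.01 to 5.44 for Scgn.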
